A study of Mus musculus with 9 samples.

Results

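Aminoacyl-tRNA synthetases were examined in whole mouse extrahepatic bile ducts (EHBDs) 24 hours after bile duct ligation (BDL). The members are the 35 genes whose Ensembl IDs map to the listed symbols, 19 for cytosolic enzymes and 16 for mitochondrial enzymes, among 55822 gene IDs in the count table. The rule that names them used no measured value, but earlier results of these data were known when they were chosen. All 35 had at least 10 counts summed over the 9 libraries, the minimum for testing, and were among the 21299 genes tested. The study asked how the duct responds to obstruction. EHBDs from 5 adult wild-type C57BL/6J mice (3 females and 2 males) were taken after BDL, in which the distal duct was tied near the duodenum, and from 4 adult wild-type C57BL/6J mice (2 females and 2 males) after sham surgery, a laparotomy without ligation. Each library held the RNA of 1 whole duct and was measured by bulk RNA-Seq, so that fewer cells of a type and less RNA per cell cannot be told apart. The labels give the strain as C57BL/6. The study's methods say that mice were matched for age and sex, with littermates as controls where possible, and which mice were littermates was not given in the sources used here.

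Each aminoacyl-tRNA synthetase joins an amino acid to the tRNAs that carry its anticodons, the step that sets which amino acid a codon receives. The cytosol and the mitochondrion have separate sets of these enzymes, both encoded in the nucleus, and by convention symbols that end in 1 name cytosolic enzymes and those that end in 2 name mitochondrial ones. Several cytosolic enzymes sit in a multisynthetase complex held together by scaffold proteins, many cytosolic genes are targets of the transcription factor ATF4 when amino acids run short, and Wars1 is known to respond to interferon.

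Counts per library ran from 23067967 to 29991945 (BDL against sham, two-sided exact permutation test, p = 0.921). Of all genes tested, 41.4% differed between BDL and sham, 21.4% higher and 19.9% lower after BDL, at an adjusted p under 0.05 in the quasi-likelihood test of edgeR, and the median log2 fold change of all genes was -0.03. Of 9 biliary epithelial markers 5 rose and 1 fell, and none was at 0 in a whole group. Their summed counts took 1.56% to 2.16% of BDL libraries and 0.249% to 0.673% of sham libraries. The 22 markers of pancreatic acinar cells, the enzyme-secreting cells of the neighbouring pancreas, took 0.0105% to 3.5% of BDL libraries and 24% to 62.7% of sham libraries, and the groups did not overlap (two-sided exact permutation test, p = 0.00794, the lowest possible with 5 against 4 libraries), and all 22 fell. TMM factors were 1.301 to 1.437 in BDL and 0.4431 to 1.097 in sham libraries. They rescale library totals and do not remove a difference in cell makeup. Of 8 neutrophil markers, 7 rose, with a summed share of 0.014% to 0.146% in BDL and 0.000933% to 0.00716% in sham libraries, where 1 was at 0 throughout. Of 3 immune markers 2 rose, of 6 fibroblast markers 2 fell, of 6 pancreatic islet markers 6 fell and of 4 hepatocyte markers 1 fell. Sham replicates 7 and 2 had the highest acinar shares, and results that rest on them are given with and without them.

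Levels are CPM, counts per 1000000 counts of a library's TMM-scaled total. For comparison between genes they were divided by the length of the canonical transcript in kilobases. On this per-kilobase scale the 19 cytosolic genes had a median level of 35.4 in BDL EHBDs (12.9 to 117) and 20.5 in sham EHBDs (5.12 to 61.9). Among them Nars1, for asparagine, was highest in both groups, with 117 in BDL EHBDs and 61.9 in sham EHBDs, followed by Gars1, for glycine, with 77 in BDL EHBDs and 41.4 in sham EHBDs. The 15 mitochondrial genes other than Lars2 lay lower, at a median of 3.83 in BDL EHBDs (1.70 to 21.6) and 2.44 in sham EHBDs (0.635 to 13.9). Lars2, the mitochondrial enzyme for leucine, stood apart with per-kilobase levels of 364 in BDL EHBDs and 804 in sham EHBDs, and is described separately. The plot of levels by library shows every member on the CPM scale.

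**Figure D1:**
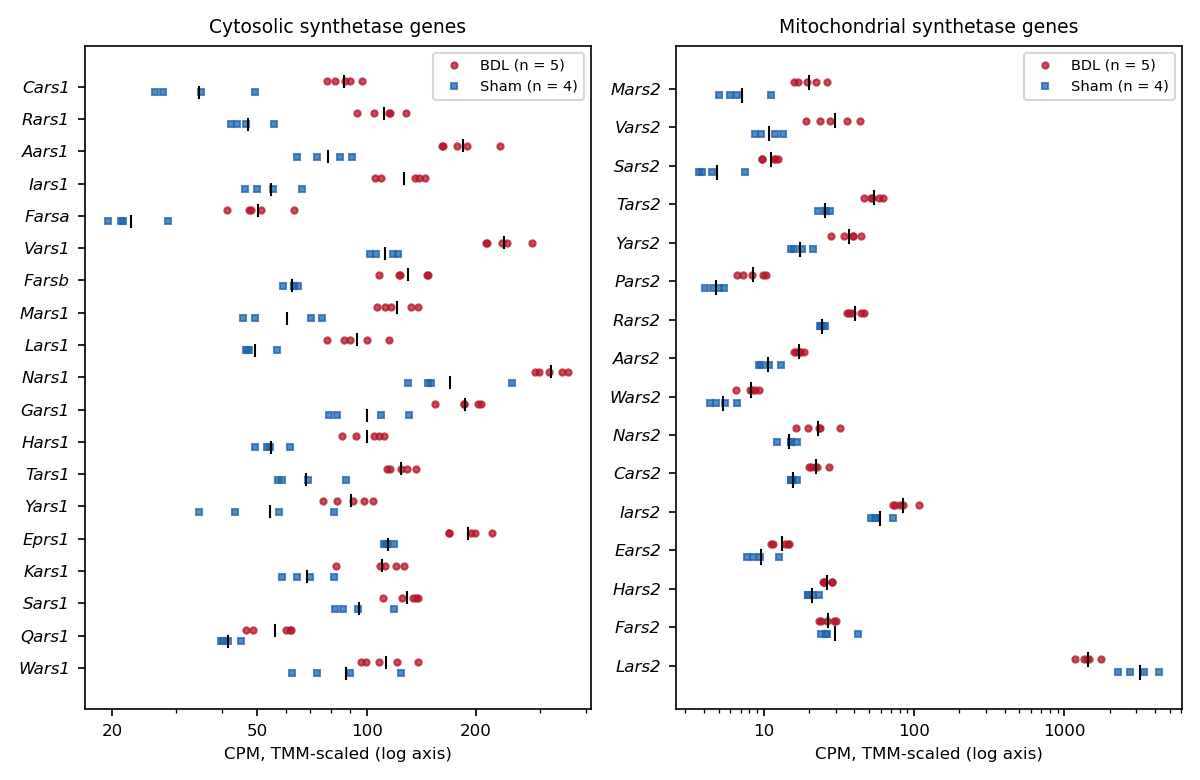
Level of each synthetase gene in each library, in TMM-scaled CPM on a log axis, with 1 point per mouse (red circles, BDL, n = 5; blue squares, sham, n = 4) and a black tick at each group mean. Groups do not overlap, with BDL higher, in 16 of 19 cytosolic genes (left) and 10 of 16 mitochondrial genes (right), and Lars2 is lower in every BDL library.

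Cytosolic synthetase genes rose together. Of 19, 18 rose, none fell and 1, Wars1, did not pass the test, against 21.4% of all genes tested that rose. Their median log2 fold change was 0.91, with single genes from 0.36 to 1.33, and 8 of 19 had a fold above 2. In 16 genes the lowest BDL library exceeded the highest sham library, which held for 20.4% of all genes tested. The exceptions were Sars1, Wars1 and Yars1.

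Rars1 (ENSMUSG00000018848, chr11:35699207-35725375 of GRCm39), the arginine enzyme of the multisynthetase complex, had 115, 128, 105, 94.1 and 116 CPM in BDL EHBDs, against 42.3, 46.6, 43.9 and 55.8 CPM in sham EHBDs. Every BDL library was above every sham library, and sham replicate 7 was the highest of its group. Rars1 had a log2 fold change of 1.24 ± 0.13 (SE, adjusted p = 0.0001), the smallest p of the members. Iars1 (ENSMUSG00000037851, chr13:49835576-49887745), the isoleucine enzyme of the same complex, had 106, 139.6, 135, 109.7 and 145 CPM in BDL EHBDs, against 46.2, 55.3, 50 and 66.4 CPM in sham EHBDs. Groups again did not overlap, and the difference came to a log2 fold change of 1.21 ± 0.15 (SE, adjusted p = 0.000229) in edgeR's quasi-likelihood test.

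Both subunits of cytosolic phenylalanyl-tRNA synthetase rose to a like degree. Farsa (ENSMUSG00000003808, chr8:85583610-85595887), the catalytic alpha subunit, had 47.7, 63.2, 51.2, 41.5 and 48.1 CPM in BDL EHBDs, against 21.4, 19.4, 21.1 and 28.4 CPM in sham EHBDs. BDL replicate 4 was the highest, and the lowest BDL library was above the highest sham library. Farsb (ENSMUSG00000026245, chr1:78392766-78465534), the beta subunit, had 122, 147, 147, 108 and 124 CPM in BDL EHBDs, against 64.6, 63.1, 58.8 and 63.3 CPM in sham EHBDs. The 4 sham libraries lay close together, below all BDL libraries. In edgeR's quasi-likelihood test Farsa had a log2 fold change of 1.14 ± 0.15 (SE, adjusted p = 0.000307) and Farsb a log2 fold change of 1.05 ± 0.12 (SE, adjusted p = 0.000164).

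Outside the complex, Vars1 (ENSMUSG00000007029, chr17:35219871-35235305), for valine, had 236, 285, 214, 214 and 244 CPM in BDL EHBDs, against 118, 106, 102 and 122 CPM in sham EHBDs, and Aars1 (ENSMUSG00000031960, chr8:111754391-111784296), for alanine, had 189, 177, 162, 162 and 233 CPM in BDL EHBDs, against 64.5, 84.8, 73 and 91.1 CPM in sham EHBDs. In neither gene did the groups overlap, and BDL replicate 4 was highest for Vars1 and BDL replicate 10 for Aars1. edgeR's quasi-likelihood test gave Vars1 a log2 fold change of 1.09 ± 0.13 (SE, adjusted p = 0.000182) and Aars1 a log2 fold change of 1.24 ± 0.15 (SE, adjusted p = 0.000222). Cars1, for cysteine, had the largest log2 fold change of the cytosolic genes, 1.33 ± 0.19 (SE).

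Eprs1 (ENSMUSG00000026615, chr1:185095101-185161840) encodes a single protein that charges both glutamate and proline tRNAs in the cytosol. It had 169, 194, 199, 168 and 221 CPM in BDL EHBDs, against 114, 112, 113 and 119 CPM in sham EHBDs. Sham libraries lay within a narrow range and BDL libraries above it, with a log2 fold change of 0.73 ± 0.12 (SE, adjusted p = 0.00088) in edgeR's quasi-likelihood test. Gars1 (ENSMUSG00000029777, chr6:55014927-55061231) and Kars1 (ENSMUSG00000031948, chr8:112719747-112738004) are the glycine and lysine enzymes that serve the cytosol and the mitochondrion from 1 gene each. Gars1 had 186, 203, 185, 154 and 206 CPM in BDL EHBDs, against 83, 109.6, 78.7 and 131 CPM in sham EHBDs. Kars1 had 112, 127, 109, 82.6 and 121 CPM in BDL EHBDs, against 58.4, 69.7, 64.2 and 81.5 CPM in sham EHBDs. Groups did not overlap in either gene, although the lowest BDL library (replicate 8) exceeded the highest sham library (replicate 7) of Kars1 by little. Log2 fold changes from edgeR's quasi-likelihood test were 0.89 ± 0.17 for Gars1 (SE, adjusted p = 0.00281) and 0.69 ± 0.15 for Kars1 (SE, adjusted p = 0.00552).

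Wars1 (ENSMUSG00000021266, chr12:108825955-108860188), the tryptophan enzyme, was the 1 cytosolic gene that was not called. It had 121, 138, 99.7, 96.6 and 108 CPM in BDL EHBDs, against 73, 90.2, 62.3 and 125 CPM in sham EHBDs. Sham replicate 7 lay within the BDL range, while the other 3 sham libraries were below all BDL libraries. Its log2 fold change was 0.36 (95% interval -0.10 to 0.82, adjusted p = 0.186 by the quasi-likelihood test of edgeR), and without sham replicate 7 it was 0.64 (adjusted p = 0.0187). Without sham replicates 7 and 2 it was 0.75 (adjusted p = 0.0175).

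The remaining cytosolic genes were called higher, with log2 fold changes of 1.02 for Mars1 (methionine), 0.93 for Lars1 (leucine), 0.91 for Nars1, 0.88 for Hars1 (histidine), 0.86 for Tars1 (threonine), 0.74 for Yars1 (tyrosine), 0.44 for Sars1 (serine) and 0.42 for Qars1 (glutamine). Of these 8 genes, Yars1, Sars1 and Qars1 had the largest adjusted p in the quasi-likelihood test of edgeR, 0.028, 0.0275 and 0.0186. With 1 library left out, the call of Qars1 ended without BDL replicate 3 or sham replicate 5 (adjusted p = 0.0629 and 0.0563). Those of Sars1 and Yars1 ended without BDL replicate 3 or 10 or sham replicate 1, 2 or 5 (adjusted p up to 0.0891 for Sars1 and 0.0716 for Yars1). The other 15 cytosolic calls held in all 9 such fits.

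All 7 genes of the multisynthetase complex rose (median log2 fold change 0.93), as did 11 of 12 outside it (0.90). By catalytic fold, the structural division of the enzymes into classes I and II, 8 of 9 class I genes rose (median 1.02) and 9 of 9 class II genes (0.89), with the bifunctional Eprs1 left out of both. The share of all genes tested that rose was 21.4%. The subgroups are described by these counts, and the differences between their medians were not tested. Of 3 scaffold genes of the complex all rose. Eef1e1 ranged from 47.7 to 79.3 CPM in BDL EHBDs, against 16.2 to 27.8 CPM in sham EHBDs, with a log2 fold change of 1.62 ± 0.19 (SE, adjusted p = 0.000184) in edgeR's quasi-likelihood test, and Aimp2 from 49.6 to 80 CPM in BDL EHBDs, against 17.9 to 32.2 CPM in sham EHBDs, with a log2 fold change of 1.57 ± 0.20 (SE, adjusted p = 0.000305). The groups lay apart in both genes. Aimp1 rose less, with a log2 fold change of 0.39. It ranged from 40.4 to 48.2 CPM in BDL EHBDs, against 30.6 to 35.7 CPM in sham EHBDs, also without overlap.

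**Figure D2:**
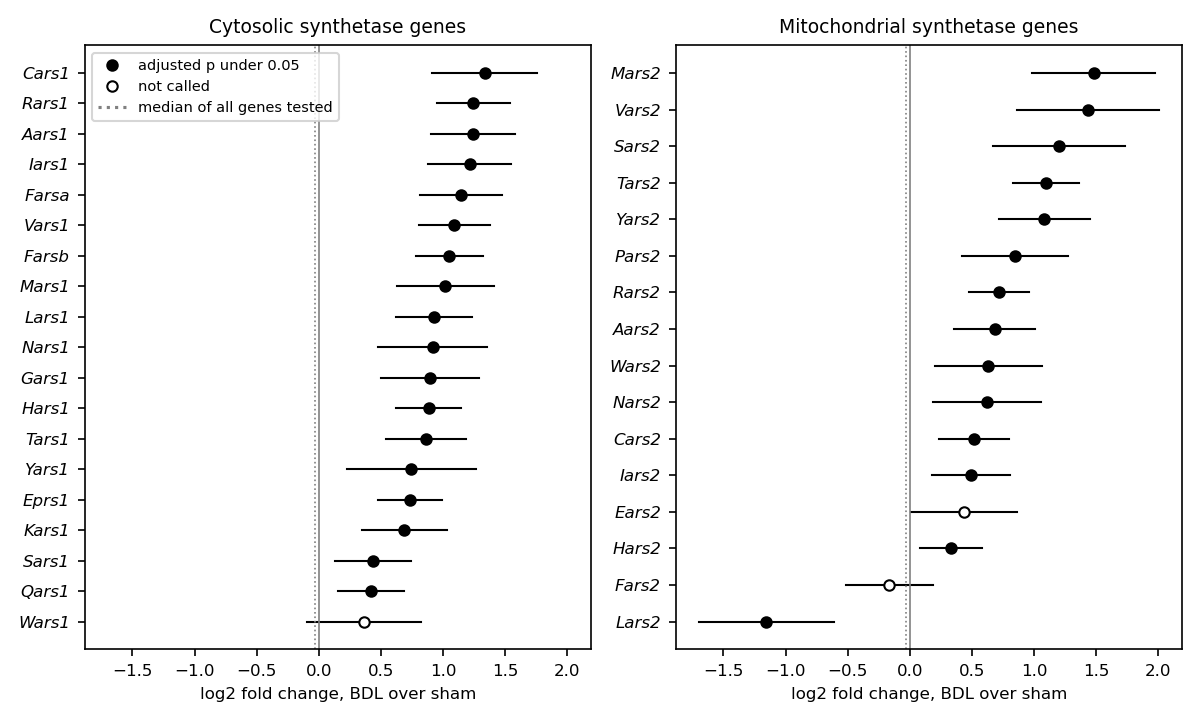
Log2 fold change of each member, BDL over sham, from edgeR's quasi-likelihood fit across 21299 genes, with bars for the 95% interval. Filled points passed an adjusted p of 0.05, open points (Wars1, Ears2 and Fars2) did not, and the dotted line marks the median of all genes at -0.03.

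Of the 16 mitochondrial genes, 13 rose, 1 fell (Lars2) and 2 did not pass the test (Ears2 and Fars2). Their median log2 fold change was 0.66, or 0.68 without Lars2. BDL libraries lay above all sham libraries in 10 genes, against 20.4% of all genes tested. They lay below all in 1, Lars2, against 17.8% of all genes tested. Of all genes tested 21.4% rose and 19.9% fell.

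Tars2 (ENSMUSG00000028107, chr3:95647269-95667518), the mitochondrial enzyme for threonine, had 52, 62.4, 58.7, 46.4 and 52.5 CPM in BDL EHBDs, against 25.7, 27.5, 22.9 and 25.8 CPM in sham EHBDs. The sham libraries were close together, and every BDL library was above them. In edgeR's quasi-likelihood test Tars2 had a log2 fold change of 1.10 ± 0.12 (SE, adjusted p = 0.000119). Rars2 (ENSMUSG00000028292, chr4:34614638-34660904), for arginine, had 37.1, 46.4, 44.1, 35.8 and 38.8 CPM in BDL EHBDs, against 24.6, 23.9, 25.4 and 23.7 CPM in sham EHBDs. Its groups did not overlap either, at a log2 fold change of 0.72 ± 0.11 (SE, adjusted p = 0.000688).

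Mars2 (ENSMUSG00000046994, chr1:55276336-55287629), for methionine, had the largest fold change of all members. It had 17, 26.2, 22.1, 15.8 and 19.2 CPM in BDL EHBDs, against 4.99, 5.94, 6.66 and 11.1 CPM in sham EHBDs. No BDL library was as low as sham replicate 7, the highest sham library, and edgeR's quasi-likelihood test gave a log2 fold change of 1.48 ± 0.22 (SE, adjusted p = 0.000668). Vars2 (ENSMUSG00000038838, chr17:35966526-35978510), for valine, had 27.5, 43.7, 36, 19 and 23.6 CPM in BDL EHBDs, against 11.8, 9.53, 8.67 and 13.3 CPM in sham EHBDs. BDL libraries were spread widely, with replicate 8 the lowest and replicate 4 the highest, and none reached the sham range. Vars2 had a log2 fold change of 1.43 ± 0.25 (SE, adjusted p = 0.00171).

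Yars2 (ENSMUSG00000022792, chr16:16120366-16157367), for tyrosine, had 34.4, 44.3, 39.3, 28.1 and 39.3 CPM in BDL EHBDs, against 17.8, 15.9, 15.1 and 21.1 CPM in sham EHBDs. Groups did not overlap, and Yars2 had a log2 fold change of 1.08 ± 0.16 (SE, adjusted p = 0.0007) in edgeR's quasi-likelihood test. Further mitochondrial genes called higher were Sars2 (serine) with a log2 fold change of 1.20, Pars2 (proline) with 0.84, Aars2 (alanine) with 0.68, Wars2 (tryptophan) with 0.63, Nars2 (asparagine) with 0.62, Cars2 (cysteine) with 0.52, Iars2 (isoleucine) with 0.49 and Hars2 (histidine) with 0.33. In fits without 1 library, Hars2 was called only when sham replicate 2 was the one left out (adjusted p up to 0.113 otherwise). Iars2 was not called without BDL replicate 3 or sham replicate 7 (up to 0.061), Nars2 not without BDL replicate 3 or sham replicate 1, 5 or 7 (up to 0.0768), and Wars2 not without BDL replicate 10 or sham replicate 2 or 7 (up to 0.0672). The other 10 mitochondrial calls, Lars2 among them, held in all 9 fits.

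Fars2, for phenylalanine, averaged 26.6 ± 3.06 CPM in BDL EHBDs (SD, n = 5) and 29.6 ± 8.46 CPM in sham EHBDs (SD, n = 4), a log2 fold change of -0.17 (95% interval -0.51 to 0.18, adjusted p = 0.428 by the quasi-likelihood test of edgeR). Sham replicate 7 was the highest of all 9 libraries for this gene, and without it the log2 fold change was 0.03. Ears2, for glutamate, averaged 13.1 ± 1.7 CPM in BDL EHBDs (SD, n = 5) and 9.56 ± 2.18 CPM in sham EHBDs (SD, n = 4), a log2 fold change of 0.43 (95% interval 0.01 to 0.86, adjusted p = 0.095). Groups overlapped through sham replicate 1, and without that library the log2 fold change was 0.65 (adjusted p = 0.0102).

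Lars2 (ENSMUSG00000035202, chr9:123195952-123291731) ran against the other members. It had 1418, 1351, 1760.4, 1467 and 1170.4 CPM in BDL EHBDs, against 2279, 4253, 2738 and 3377 CPM in sham EHBDs. Every BDL library was below every sham library, with a log2 fold change of -1.15 ± 0.24 (SE, adjusted p = 0.00424) in edgeR's quasi-likelihood test. Its estimated counts, 37485 to 67537 per library, were 2.66 to 4.09 times the sum of the other 15 mitochondrial genes in BDL libraries and 9.15 to 17.1 times that sum in sham libraries. Set against the counts of the ribosomal RNA gene Rn18s-rs5, they gave ratios of 1.34 to 1.69 in BDL and 1.17 to 1.47 in sham libraries, which overlap (geometric means 1.51 in BDL and 1.32 in sham). Against the mitochondrial ribosomal RNA gene mt-Rnr2 the ratios were 1.24 to 1.57 in BDL and 1.15 to 2.63 in sham libraries, also with overlap but with a lower geometric mean after BDL (1.34 in BDL and 1.93 in sham). The canonical transcript has 3934 bases, and its coding sequence ends at base 2948. After the stop codon, bases 3062 to 3459 hold stretches with 6 copies elsewhere in GRCm39 (at least 95% identical over at least 100 bases, the longest 97.5% over 244 bases). Lars2 is therefore given as uncertain and left out of the sums, and which reads its estimate holds was not tested.

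Cytosolic and mitochondrial genes were next compared within a library, where scaling between libraries has no part. The summed counts of the 19 cytosolic genes were 6.19, 5.56, 5.70, 6.10 and 7.01 times those of 15 mitochondrial genes in BDL EHBDs, against 4.99, 5.53, 4.52 and 6.03 times in sham EHBDs. Groups overlapped, and their geometric means, 6.09 in BDL and 5.24 in sham, differed by 0.22 on the log2 scale. With Gars1 and Kars1 left out, since they serve both compartments, the difference was 0.23. Set against the same mitochondrial sum, 7 of 19 cytosolic genes (Aars1, Cars1, Farsa, Farsb, Iars1, Rars1 and Vars1) had a ratio above the sham range in every BDL library, which held for 6.80% of all genes tested.

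Pairs of enzymes for the same amino acid differed among themselves. Fars2 was paired with Farsa, and Eprs1 with both Ears2 and Pars2. In 6 of 16 pairs the count ratio, cytosolic over mitochondrial, was higher in every BDL library than in any sham library, in 1 it was lower, and in 9 the groups overlapped. For all genes set against each mitochondrial member in turn, the ratio was above in 8.46% of cases and below in 34.9%. The ratio of Farsa to Fars2 was 1.8, 2.16, 2.14, 1.38 and 2.07 in BDL EHBDs, against 0.829, 0.81, 0.796 and 0.674 in sham EHBDs. In BDL EHBDs Farsa had more counts than Fars2 in every library, and in sham EHBDs fewer in every library. Farsb, the other subunit gene, had more counts than Fars2 in every sham library too. Its sham counts were 1916, 914, 1166 and 713, against 764, 347, 525 and 475 for Fars2. Cars1 to Cars2 was 3.87, 3.35, 4.08, 3.78 and 4.44 in BDL EHBDs, against 1.81, 2.3, 1.69 and 2.98 in sham EHBDs, and Iars1 to Iars2 was 1.26, 1.3, 1.67, 1.52 and 1.95 in BDL EHBDs, against 0.893, 0.985, 0.689 and 1.21 in sham EHBDs.

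Aars1 to Aars2 had geometric means of 10.7 in BDL and 7.35 in sham EHBDs, Rars1 to Rars2 2.76 in BDL and 1.92 in sham EHBDs. The remaining pair with a higher ratio was Lars1 to Lars2, which rests on the uncertain counts of Lars2. Serine went the other way. Sars1 to Sars2 was 10.8, 14.1, 12.8, 9.45 and 11.6 in BDL EHBDs, against 23.5, 24.5, 18.1 and 15.9 in sham EHBDs, with every BDL library below every sham library. Sars1 had a log2 fold change of 0.44 and Sars2 of 1.20. The methionine pair had a mean ratio of 6.13 in BDL and 8.61 in sham EHBDs, with overlap. These ratios are descriptions without a test.

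**Figure D3:**
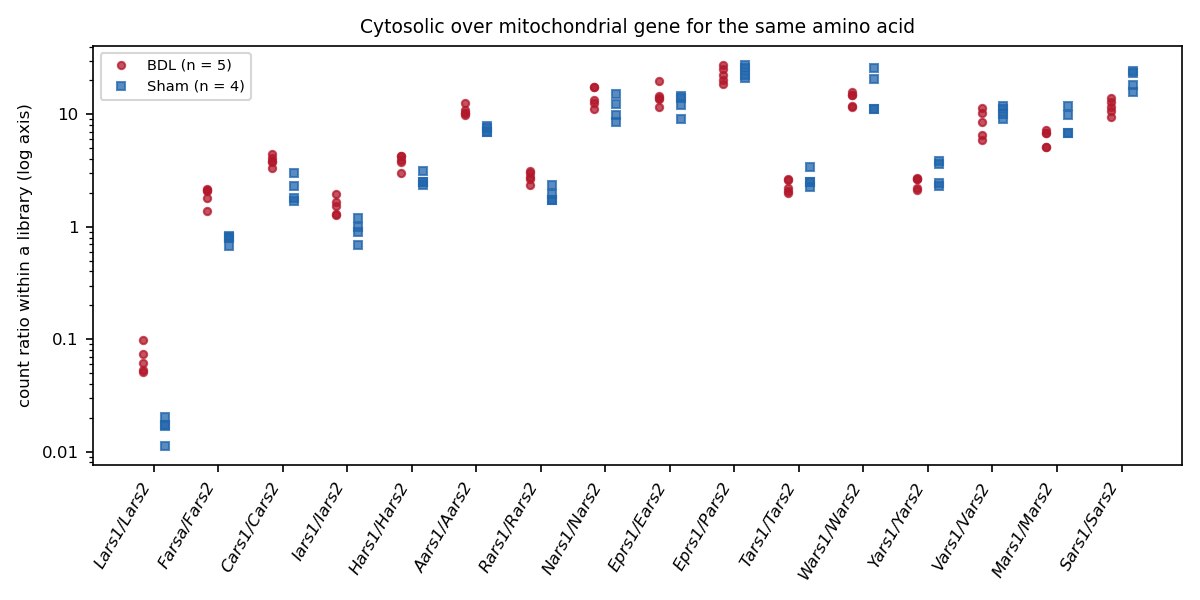
Count of the cytosolic over the mitochondrial gene for the same amino acid in each library, on a log axis, with 1 point per mouse (red circles, BDL, n = 5; blue squares, sham, n = 4). Pairs run by the size of the difference, Lars1/Lars2 at the left and Sars1/Sars2, the 1 pair lower in every BDL library, at the right.

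The acinar share moved with surgery, and the summed levels are given beside it. The 19 cytosolic genes summed to 2519, 2820, 2452, 2243 and 2792 CPM in BDL replicates 3, 4, 6, 8 and 10, whose acinar shares were 3.5%, 0.0204%, 0.0105%, 2.13% and 0.264%. They summed to 1242, 1373, 1181 and 1711 CPM in sham replicates 1, 2, 5 and 7, whose shares were 24%, 56.6%, 42.6% and 62.7%. Sham replicate 7, with the most acinar counts, had the highest sham sum on the TMM scale, still below every BDL library. Without that scaling the order among sham libraries differed. The cytosolic genes took 0.136%, 0.0735%, 0.0972% and 0.0758% of all counts in sham replicates 1, 2, 5 and 7. In BDL libraries they took 0.305% to 0.388%. What sets the order among sham libraries was not tested. The 15 mitochondrial genes summed to 407, 507.2, 430.0, 368 and 398.2 CPM in the same BDL libraries, against 248.9, 248.3, 261.3 and 283.6 CPM in the sham libraries.

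Without sham replicates 7 and 2, 18 cytosolic genes (Wars1 in, Qars1 out) and 9 mitochondrial genes rose, beside 3555 of 20872 genes tested. The median log2 fold changes were then 1.12 for cytosolic and 0.71 for mitochondrial genes. With the log2 acinar share as a further term, which nearly repeats the surgery groups, 5 cytosolic genes (Aars1, Cars1, Farsb, Rars1 and Vars1) and 2 mitochondrial genes (Sars2 and Tars2) were called, all higher, and 1916 genes in all. Medians in that fit were 0.81 for cytosolic and 0.43 for mitochondrial genes. Of the genes in the 12 other lists (the scaffolds above and the lists described next), 82 differed, 57 higher and 25 lower. The size of each list is given where it is described, and 41.4% of all genes tested differed. With the acinar term 7 genes of these lists differed, 6 higher and 1 lower, beside the 1916 of all 21299 genes. Acinar content and surgery cannot be told apart in these libraries, and the part of the biliary and neutrophil shares in the result was not tested.

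**Figure D4:**
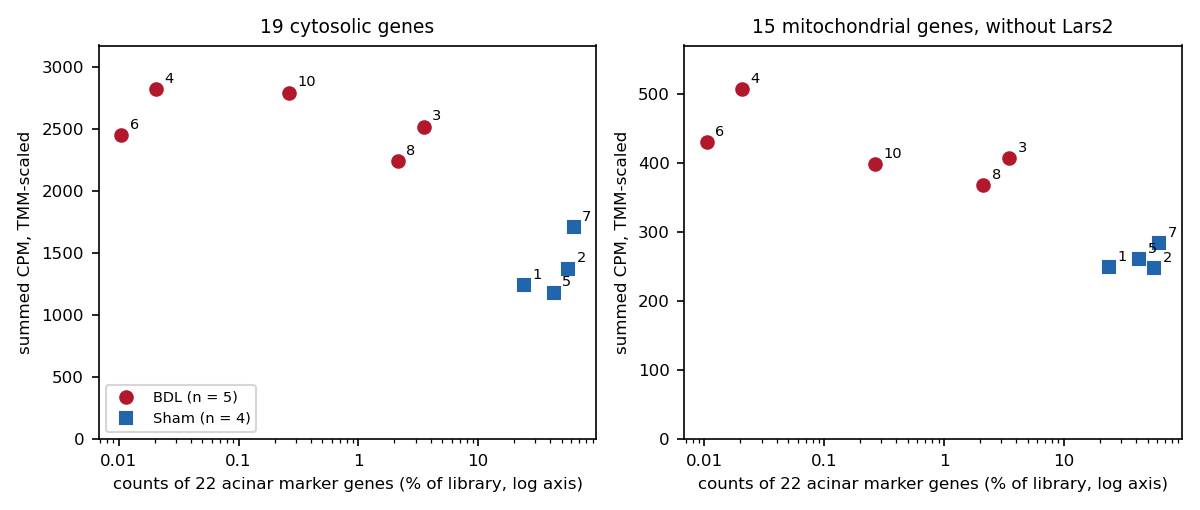
Summed TMM-scaled CPM of the 19 cytosolic genes (left) and of 15 mitochondrial genes without Lars2 (right) against the share of counts taken by 22 acinar markers, in percent of the library on a log axis, with 1 point per mouse labelled by replicate (red circles, BDL; blue squares, sham). BDL libraries lie higher and at shares of at most 3.5%, sham libraries lower and at 24% or more.

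Other genes of tRNA charging were read from the same fit. Beside each list below stand the shares of all genes tested, 21.4% higher and 19.9% lower. Of 22 genes for tRNA end processing, splicing and export, 17 rose, 1 fell and 4 did not pass, with a median log2 fold change of 0.79. Rpp30, a protein subunit of ribonuclease P and MRP, ranged from 32.8 to 38.1 CPM in BDL EHBDs, against 10.9 to 19.3 CPM in sham EHBDs, without overlap, and had a log2 fold change of 1.27 ± 0.13 (SE, adjusted p = 9.9e-05) in edgeR's quasi-likelihood test. Pop7 and Pop1, subunits of the same enzymes, rose with log2 fold changes of 1.41 and 2.34, and Xpo5, a nuclear export receptor of structured RNAs, with 1.38. Elac1, a tRNA 3' endonuclease, fell with a log2 fold change of -0.74 (adjusted p = 0.00851 by the quasi-likelihood test of edgeR).

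RNA polymerase III, which transcribes tRNA genes, had 12 of 19 subunit and factor genes higher, 2 lower and 5 not called (median log2 fold change 0.45). The alternative subunits Polr3g and Polr3gl moved in opposite directions. Polr3g ranged from 14.6 to 25.3 CPM in BDL EHBDs, against 5.94 to 8.13 CPM in sham EHBDs, with a log2 fold change of 1.47 ± 0.20 (SE, adjusted p = 0.000388) in edgeR's quasi-likelihood test, and Polr3gl fell to 2.43 to 3.28 CPM in BDL EHBDs, against 4.62 to 9.67 CPM in sham EHBDs, with a log2 fold change of -1.36 ± 0.24 (SE, adjusted p = 0.00168). Neither pair of ranges overlapped. Maf1, the repressor of the polymerase, fell with a log2 fold change of -0.81 (adjusted p = 0.000256), and the TFIIIC subunit gene Gtf3c2 rose with 0.81, Polr3e with 0.98 and Crcp with 1.12. Without sham replicates 7 and 2, 7 genes of this list rose.

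Of 7 cytosolic elongation factor genes tested, 5 rose. The nucleotide exchange subunits Eef1d and Eef1b2 had log2 fold changes of 1.10 and 0.43, Eef1g rose as well, and Eif5a, which helps peptide bonds form at difficult sequences, had 1.26. Eef1a1, which delivers charged tRNA to the ribosome, had -0.26 and Eef2, the translocation factor, -0.16, neither of them called. Without sham replicate 5, 3 of this list rose. Of 10 mitochondrial translation factor genes 5 rose, among them Tsfm (1.39), Gfm1 (1.33) and Tufm (0.92), the mitochondrial elongation factors, and Mtfmt (0.80), which formylates the initiator methionyl-tRNA, with log2 fold changes in parentheses.

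Mammalian mitochondria charge glutamine tRNA in an indirect way, through a glutamyl-tRNA that an amidotransferase converts. Of its 3 subunit genes Qrsl1 rose with a log2 fold change of 1.20, while Gatc had 0.28 and Gatb had -0.004, neither called. Of 7 genes for mitochondrial tRNA processing 2 rose (Trmt10c, 0.67, and Trmu, 0.66) and 2 fell (Hsd17b10, -0.61, and Trit1, -0.59), with log2 fold changes in parentheses. Trmt10c and Hsd17b10 encode partners in 1 methyltransferase complex of mitochondrial tRNA. In fits without 1 library as few as 1 gene of this list rose and 1 fell. Of 5 genes of the selenocysteine route 2 rose (Eefsec, 0.79, and Secisbp2, 0.73), and of 6 genes for editing in trans and synthetase-like proteins 2 rose (Aarsd1, 0.66, and Yrdc, 0.89). Without BDL replicate 8, 2 amidotransferase genes rose, and without sham replicate 5 or 7, 1 gene of the selenocysteine route. Among all genes tested 21.4% rose and 19.9% fell, and these lists are short.

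**Figure D5:**
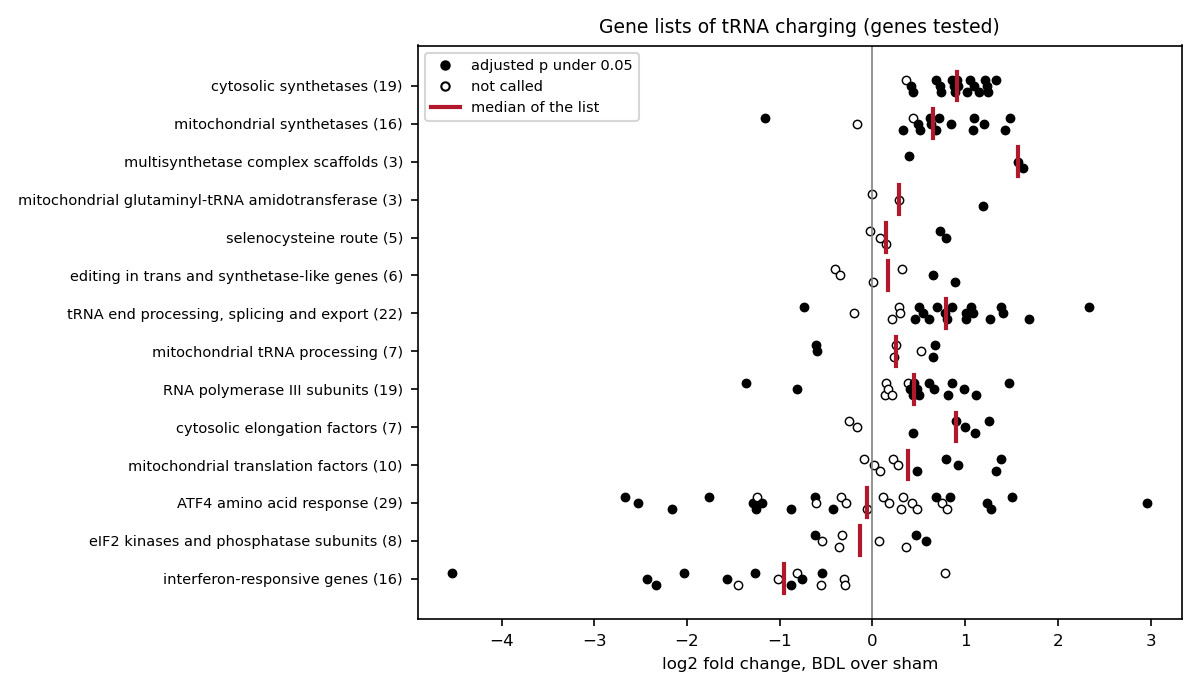
Log2 fold change, BDL over sham, of each tested gene of the synthetase classes and of 12 other lists, with the number of genes in parentheses. Filled points passed an adjusted p of 0.05 in edgeR's quasi-likelihood test, open points did not, and red bars mark list medians, which are 0.91 for cytosolic synthetases, -0.05 for the ATF4 amino acid response and -0.95 for interferon-responsive genes.

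Many cytosolic synthetase genes are known targets of ATF4, and genes of that response were listed to set beside them. Of 11 cytosolic synthetase genes listed as ATF4 targets 10 rose (median log2 fold change 0.89), and of 8 not so listed 8 rose (0.99). Of 29 other genes of the ATF4 amino acid response 6 rose, 10 fell and 13 did not pass, with a median log2 fold change of -0.05. Among all genes tested 21.4% rose, a share near that of this list, and 19.9% fell. These counts depend on single sham libraries: 11 rose and 9 fell without sham replicate 7, 10 rose and 4 fell without sham replicates 7 and 2, and 3 rose without sham replicate 1, 2 or 5. Atf4 itself had 0.48 (adjusted p = 0.0569 by the quasi-likelihood test of edgeR), which did not pass. Asns, asparagine synthetase, ranged from 68.1 to 93.4 CPM in BDL EHBDs, against 85.6 to 356 CPM in sham EHBDs, with overlap, and fell with a log2 fold change of -1.20 ± 0.33 (SE, adjusted p = 0.0158). Slc7a11, the cystine transporter (2.96), Shmt2, which makes glycine in mitochondria (1.51), Cebpb, a partner of ATF4 (1.28), Psat1, of serine synthesis (1.24), Slc7a1, a cationic amino acid transporter (0.83), and Aldh18a1, of proline synthesis (0.69), rose, with log2 fold changes in parentheses. The remaining genes that fell were Cth (-2.67), Nupr1 (-2.53), Stc2 (-2.16), Pycr1 (-1.76), Gpt2 (-1.29), Slc1a5 (-1.25), Atf5 (-0.88), Slc3a2 (-0.62) and Eif4ebp1 (-0.42), likewise.

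Of 8 genes for eIF2 kinases, their regulators and the phosphatase subunits that oppose them, 2 rose (Gcn1, 0.58, and Eif2ak2, 0.47) and Eif2ak3, the kinase of the endoplasmic reticulum stress response, fell (-0.61), with log2 fold changes in parentheses. Eif2ak4, the kinase that uncharged tRNA activates, had -0.33 (adjusted p = 0.216 by the quasi-likelihood test of edgeR), which did not pass. Without sham replicate 5, 1 gene of this list rose, and without sham replicates 7 and 2, 1 rose and 0 fell. Of 16 interferon-responsive genes, listed because Wars1 responds to interferon, none rose, 9 fell and 7 did not pass, with a median log2 fold change of -0.95. Among all genes tested 21.4% rose and 19.9% fell. Without sham replicate 5, 5 fell. Gbp3, Gbp2, Psmb9 and Irf1 fell with log2 fold changes of -2.33, -2.44, -1.27 and -0.76.

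The members' promoters, taken as 250 bases before to 50 after the canonical start site of Gencode vM39 on GRCm39, were searched on both strands for the core of the element that ATF4 binds with C/EBP partners (CARE, letters TGATGNAA). It lay in 5 of 19 cytosolic promoters (26.3%) and 0 of 16 mitochondrial promoters, against 2.71% of the 16257 promoters of all protein-coding genes tested. All 5 belong to the 11 genes listed as ATF4 targets. The windows are shown because they hold the matched letters. Each is written on the strand of the gene, with capitals for the match, which in all 6 windows reads in reverse complement, and with the position of its first base counted from the start site as 1, the base before it being -1.
Aars1, chr8:111760354-111760377, plus strand, position -146: cttgagcaTTGCATCAgccgagcc
Aars1, chr8:111760475-111760498, plus strand, position -25: gggtcactTTTCATCAgagcgctc
Cars1, chr7:143153785-143153808, minus strand, position 28: cgccgcggTTGCATCAgattctgg
Gars1, chr6:55014948-55014971, plus strand, position 13: ctgcgctaTTTCATCAtgcaccgg
Iars1, chr13:49835605-49835625, plus strand, position 38: tgtcagtaTTGCATCAcctcc
Tars1, chr15:11399744-11399767, minus strand, position -8: gagtcccgTTGCATCAgctggtta

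The 5 genes with this match had log2 fold changes of 1.33 (Cars1), 1.24 (Aars1), 1.21 (Iars1), 0.89 (Gars1) and 0.86 (Tars1), within the range of the other cytosolic genes but for Cars1, which lay above it. The E-box CACGTG, to which MYC and related factors bind, lay in 4 of 19 cytosolic promoters (21.1%), 0 of 16 mitochondrial promoters and 9.16% of all promoters. It overlapped no CARE match. Its windows, in capitals as before, come from the genes below, 3 of which also hold the CARE core.
Aars1, chr8:111760320-111760341, plus strand, position -180: aaccctgtCACGTGacactcca
Farsb, chr1:78465560-78465581, minus strand, position -39: acaggcatCACGTGagacagcc
Iars1, chr13:49835529-49835550, plus strand, position -39: aatcgccaCACGTGttgtttgt
Tars1, chr15:11399712-11399733, minus strand, position 27: cctgtggcCACGTGgcgcacgc

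The core of the interferon-stimulated response element, searched as TTTC, any 2 bases and TTTC, lay in 2 of 19 cytosolic promoters (Rars1 and Vars1), 1 of 16 mitochondrial promoters (Wars2) and 3.66% of all promoters, and was not found in that of Wars1. A match describes letters only, and a promoter without one says nothing about the factor. Binding was not measured.

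No member passed a test for a response that differs by sex. For the interaction of surgery and sex, edgeR's quasi-likelihood test called 0 of 21299 genes and 0 of 35 members at an adjusted p under 0.05, with 1 member at an unadjusted p under 0.05, and DESeq2 called 5 genes and 0 members. With 2 or 3 mice per sex and surgery these tests do not show that the sexes respond alike. Names of mice in the deposited sheet had either 1 or 4 digits, which the labels do not explain. All 4 mice of 1 digit were female and 4 of the 5 mice of 4 digits male, so that this form repeats sex in 8 of 9 mice. Within mice of 1 digit (2 BDL, 2 sham) 19 of 19 cytosolic and 14 of 16 mitochondrial genes had a higher mean after BDL, with median log2 differences of 0.89 and 0.74. Within mice of 4 digits (3 BDL, 2 sham) it was 19 of 19 and 15 of 16, with medians of 0.96 and 0.59.

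Some counts cannot be assigned to a member beyond doubt. Of the 35 genes, 27 overlap an annotated gene on the other strand, 17 of them a protein-coding one, and the counting was not stated to use strand. Hars1 and Hars2 lie head to head with an overlap of 198 bases, Mars1 overlaps Ddit3, and Mars2 overlaps Boll. Ddit3 had 6.25 CPM in BDL and 8.15 CPM in sham EHBDs, against 121 ± 13.5 CPM in BDL EHBDs (SD, n = 5) and 60.3 ± 14.9 CPM in sham EHBDs (SD, n = 4) for Mars1.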

How the data were processed

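Whole EHBDs from 5 mice after BDL and 4 after sham surgery were measured by bulk RNA-Seq, 1 library per mouse. The library kit was SMART-Seq mRNA. The authors quantified transcripts with Salmon (Gencode on GRCm39), then used tximeta to obtain gene values, and deposited them as estimated counts, whole and not normalized. Sex came from the deposited sheet. Transcript length offsets were not used here.

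Genes with at least 10 summed counts were fitted with edgeR 4.0.16 (R 4.3.3) by the quasi-likelihood F test with TMM and a term for sex, adjusted by Benjamini-Hochberg over 21299 genes and called at 0.05. Standard errors are the log2 fold change over the root of F. Levels are CPM over the TMM-scaled total, per kilobase where genes are compared. Count ratios of pairs and of summed classes used no pseudocount. Those over all genes tested, and of single cytosolic genes to the mitochondrial sum, used a pseudocount of 0.5. The test was also run on simulated counts, whose outcome is not given here and is not used as support. Copies of Lars2 were sought with BLAST 2.17.0. Gene positions are from Gencode vM39, which holds 55261 of the IDs. Precision is limited by 5 and 4 mice and totals of 23067967 to 29991945.

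All members were named. Values per library were given for the 6 cytosolic and 5 mitochondrial genes of smallest p, for a member called against most of its class, and for Wars1, Eprs1, Gars1 and Kars1, and from other lists up to 4 genes of smallest p with any called the other way. The members of the ATF4 list that passed were all named. The rule for the members uses no measured value, but earlier results of these data were known when members and lists were chosen. Alternatives were DESeq2 1.42.0, other scalings and filters, no sex term, stricter thresholds, an acinar term, a fit without the 2 sham libraries of highest acinar share and each library left out. A term for the animal name form instead of sex, and Lars2 within the ratio, were added after seeing the data. Genes outside the listed symbols were not analysed here as members.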

Additional observations from a re-analysis of the deposited data

Results flagged for a closer look

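In 3 members 1 sham library stood far from the other 3 of its group, and in each it was sham replicate 7, which had the highest acinar share (62.7% of counts). Lars1 had 56.8 CPM there, against 47.7 CPM in the nearest sham library. Nars1 had 252 CPM, against 151 CPM in the nearest. Fars2 had 42.2 CPM, against 26.5 CPM in the nearest. At a rate of 1 in 20, 3.5 of the 70 groups examined (35 genes, BDL and sham) would be marked, against 3 here. The genes were measured in the same libraries, so these groups are not independent. The count therefore cannot decide between chance and a trait of that library, and the cause was not tested. Without this library the log2 fold change was higher for all 3 genes, and for Fars2 its sign turned.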

How the results depend on the processing

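Of 35 members, 25 kept their call in every fit that left out 1 library and 25 under every scaling and DESeq2. Upper-quartile scaling put the median of all genes at -0.18, against -0.03, and with it 15 cytosolic and 9 mitochondrial genes were called higher, 7 RNA polymerase III genes (12 with TMM), 3 cytosolic elongation factors (5), 1 gene each of the selenocysteine route and of mitochondrial tRNA processing (2 each), and 1 eIF2 regulator higher (2) and 2 lower (1). DESeq2 called 18 and 13 synthetase genes higher and 1 cytosolic elongation factor lower (0 in edgeR). With the log2 acinar share as a term, 1916 genes were called (1400 higher, 516 lower), 5 cytosolic genes (5 higher), 2 mitochondrial genes (2 higher, 0 lower) and 7 genes of the other lists (6 higher, 1 lower, against 57 and 25). Without sham replicates 7 and 2, 14 genes of the other lists were lower. An adjusted p under 0.01 left 5763 genes, 2519 of them lower. With Lars2 among the mitochondrial genes the log2 difference of the ratio was 1.77. Fars2, which was not called, changed sign with the acinar term (0.15), without sham replicates 7 and 2 (0.0155) and without sham replicate 7 alone (0.0286), with a range of -0.268 to 0.0286 over fits without 1 library.

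Leaving out 1 library gave 15 to 19 cytosolic and 9 to 12 mitochondrial genes higher, 1 mitochondrial gene lower, 7176 to 8746 genes called in all, and 44 to 57 genes of the other lists higher and 19 to 27 lower. The cytosolic count was 15 without BDL replicate 3 or sham replicate 5, and 19 without sham replicate 7, and the mitochondrial count was 9 without sham replicate 7. Calls of Qars1, Sars1, Yars1, Hars2, Iars2, Nars2 and Wars2 were lost in at least 1 of these fits, and those of Wars1 and Ears2 gained in 1 each. The animal name form instead of sex, which differs from it in 1 mouse, gave 18 and 13 genes higher. The cause of these shifts was not tested. No paired analysis was possible because which mice were littermates was not given in the sources used here. Replicate numbers of BDL and sham libraries share none and do not define pairs.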
